A study of Mus musculus with 3 samples.

Results

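Trdc encodes the constant region of the delta chain of the gamma-delta T cell receptor. Cells of the authors' cluster 9 in class gdT/NK/NKT were divided into those with 1 or more Trdc UMIs and those with 0. A UMI is a tag that counts 1 captured RNA molecule. Of 478 cluster 9 cells among 11640 nerve leukocytes, 198 were Trdc-positive and 280 were Trdc-negative. Trdc-positive cells numbered 79, 83 and 36 in libraries 1, 2 and 3, and Trdc-negative cells 72, 172 and 36. The Trdc count of each cell made the split and was left out of every test, so its level is given only as a description.

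All cells are CD45+ leukocytes from digested sciatic nerves of NOD.AIRE GW/+ mice aged 15 weeks. This genotype carries an altered copy of Aire, the thymic regulator of self-antigen display, on the autoimmune-prone NOD background. Both sides of the split share strain, genotype, age and nerve. Wild-type nerves are not used here. RNA was read from its 3′ end in libraries 1 and 2 and from its 5′ end in library 3. The cell table calls library 1 by a name ending in "pos", a term with no explanation in the labels. Whether a library holds 1 animal or several is not given in the sources used here, so each p-value covers the spread between these 3 libraries alone.

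A T cell carries either an alpha-beta receptor, built with Trac and Trbc1 or Trbc2, or a gamma-delta receptor, built with Trdc and a gamma chain gene such as Tcrg-C1 or Tcrg-C4. The delta genes lie inside the alpha locus on chromosome 14 and are usually deleted when the alpha chain is joined, whereas gamma transcripts occur in alpha-beta cells as well. Innate-like T cells of both lineages can carry receptors of natural killer (NK) cells, among them the Ly49 receptors encoded by the Klra genes, many of which bind MHC class I and restrain the cell.

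Klra8 and Klra9 had the largest fold changes of the genes called, and Klra6 fell as well, so the promoters of these 3 are shown first. They are the RefSeq sequences of GRCm38.p6, from 250 bases before to 50 bases after the annotated start, and all lie on the minus strand of chromosome 6. Klra6 is at chr6:130026905-130027204, Klra8 at chr6:130129849-130130148 and Klra9 at chr6:130193063-130193362. Capitals mark the exact runs of 12 or more bases that all 3 share.
Klra8: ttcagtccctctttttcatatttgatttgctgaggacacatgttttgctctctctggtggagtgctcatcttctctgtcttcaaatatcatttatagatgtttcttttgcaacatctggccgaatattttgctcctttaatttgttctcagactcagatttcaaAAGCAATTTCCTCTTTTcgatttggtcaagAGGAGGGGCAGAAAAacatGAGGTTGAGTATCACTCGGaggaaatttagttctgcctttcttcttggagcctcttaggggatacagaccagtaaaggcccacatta
Klra9: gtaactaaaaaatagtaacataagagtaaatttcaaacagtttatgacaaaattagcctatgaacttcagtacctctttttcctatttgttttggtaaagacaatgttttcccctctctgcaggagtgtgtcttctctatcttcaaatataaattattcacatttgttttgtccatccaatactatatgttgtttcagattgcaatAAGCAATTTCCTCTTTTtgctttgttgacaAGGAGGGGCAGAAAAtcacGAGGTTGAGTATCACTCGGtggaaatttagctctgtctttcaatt
Klra6: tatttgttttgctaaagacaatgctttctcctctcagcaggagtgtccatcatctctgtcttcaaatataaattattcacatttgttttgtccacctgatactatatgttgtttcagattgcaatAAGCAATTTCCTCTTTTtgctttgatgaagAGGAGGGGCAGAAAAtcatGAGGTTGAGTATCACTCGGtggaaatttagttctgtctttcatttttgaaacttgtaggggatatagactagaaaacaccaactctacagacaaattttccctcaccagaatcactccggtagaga
The longest shared run, GAGGTTGAGTATCACTCGG, occurs on either strand in 5 of 32851 promoters of the same length (0.0152%). The next, AAGCAATTTCCTCTTTT, occurs in 8 (0.0244%), and AGGAGGGGCAGAAAA occurs in 9 (0.0274%). The named genes with these runs were Klra genes and the predicted gene Gm52487. The longest run lies before the annotated start in Klra8 and Klra6 and after it in Klra9. Aligned over their whole length, the promoters of Klra8 and Klra6 were identical at 63.2% of positions, those of Klra9 and Klra6 at 52.7%, and those of Klra8 and Klra9 at 54.2%. The shared runs lie at different distances from the annotated starts, so the windows are offset against each other. Ends without a partner count as not identical, so these shares do not rank the pairs by likeness. The sequence is that of the C57BL/6J reference. The Ly49 gene cluster of NOD mice differs from it in gene content, so a count under a Klra symbol may hold reads of an NOD relative.

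Trdc-positive cells made 52.3% of cluster 9 in library 1 (95% exact interval 44.0 to 60.5), 32.5% in library 2 (26.8 to 38.7) and 50% in library 3 (38.0 to 62.0). The mean was 45.0 ± 10.8% (SD, n = 3). Thinned to 1000 UMIs a cell, which left out 3 shallower cells of library 3, the share was 33.8%, 24.7% and 20.3% (mean 26.3 ± 6.87%). Trdc was plentiful in positive cells of the 3′ libraries, with a median of 5 UMIs in library 1 and 8 in library 2, and a highest count of 24 and 28. In library 3 the median was 1 and the highest count 6. Just inside the threshold stood 11, 10 and 20 cells with a single Trdc UMI, which is 13.9%, 12.05% and 55.6% of the positive cells of libraries 1, 2 and 3. Every cell outside it had 0. The split in library 3 rests mostly on single UMIs, and that in libraries 1 and 2 on several. Intervals cover counting error only.

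**Figure D1:**
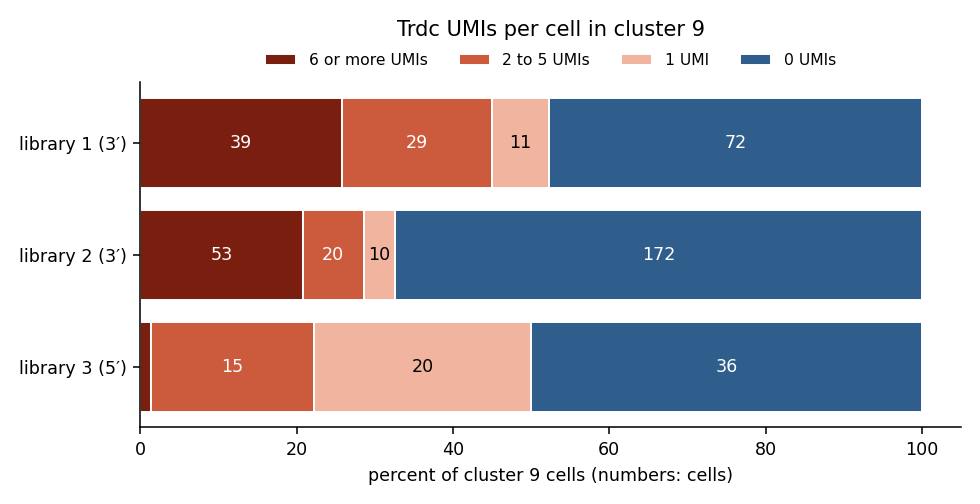
Share of cluster 9 cells by number of Trdc UMIs in each library, with cell numbers in the bars (x axis, percent of cluster 9 cells). Cells with 6 or more UMIs numbered 39 in library 1 and 53 in library 2, against 1 in library 3.

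Trdc was rare in some other classes and common in others. B cells, which should lack it, had a Trdc UMI in 12 of 1950 cells (0.615%) at a median of 3113.5 UMIs, against a median of 4681 in cluster 9. A Trdc UMI was seen in 2.21% of CD8 T cells and 0.688% of macrophages. It was seen in 62 of 291 cells of the class Mixed (21.3%), with 16.2%, 14.6% and 40.6% in libraries 1, 2 and 3. Cluster 8, the other cluster of the same class, had a Trdc UMI in 48.9% of its cells, and per 1000000 of all UMIs it held 50.6 ± 25.2 of Trac and 114 ± 44.2 of Cd3e (SD, n = 3). Depth was close on both sides. Median UMIs were 3565, 4797 and 4849 in Trdc-positive cells and 3687, 5141 and 4656 in Trdc-negative cells of libraries 1, 2 and 3. Median genes were 1405, 1771 and 1945 in Trdc-positive cells and 1438.5, 1839 and 1908.5 in Trdc-negative cells. Summed UMIs were 323809, 419638 and 174198 in Trdc-positive cells and 304810, 945269 and 152594 in Trdc-negative cells. In library 2 the Trdc-positive share was 22.4% among the deepest cells when cells were cut into 3 equal bins of depth, against 41.2% among the shallowest. Libraries 1 and 3 showed no such order (56.9% and 58% in library 1, 54.2% and 41.7% in library 3, deepest then shallowest). Of all 11640 cells, 12 had a barcode that occurred in 2 libraries, and 0 of these were in cluster 9.

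Both sides held the genes of the CD3 complex, which the T cell receptor needs for signalling. The CD3 genes Cd3d, Cd3e and Cd3g gave 1063, 1043 and 2483 UMIs in Trdc-positive cells and 1820, 1362 and 4186 in Trdc-negative cells. The NK cell receptor gene Ncr1 gave 23 UMIs in Trdc-positive cells, 13 of them in library 3, and 3 in Trdc-negative cells. The defining markers Cd79a of B cells (1 and 1 UMI) and C1qa of macrophages (7 and 3) were at or near 0 on the Trdc-positive and the Trdc-negative side. Abundant transcripts of these cell types were seen in more cells. Igkc was seen in 35.4%, 13.3% and 2.78% of Trdc-positive cells and 29.2%, 17.4% and 5.56% of Trdc-negative cells, and Apoe in 20.3%, 7.23% and 0% of Trdc-positive cells and 19.4%, 8.14% and 0% of Trdc-negative cells. The 12 genes of the myeloid list summed, per 1000000 of all UMIs, to 516, 418 and 322 in Trdc-positive cells and 702, 485 and 531 in Trdc-negative cells. Their part in the results was not tested. The interleukin 17 genes Il17a and Il17f gave 0 and 1 UMI in Trdc-positive cells and 1 and 0 in Trdc-negative cells. Traj18, the joining segment of invariant NKT cells, gave 0 UMIs in Trdc-positive cells and 7 in Trdc-negative cells.

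UMIs were summed over each side of each library and tested with edgeR, each library against itself. Of 4104 tested genes, 13 (0.317%) passed an adjusted p (Benjamini-Hochberg) of 0.05. Of these, 4 were higher in Trdc-positive cells (0.0975% of tested genes) and 9 were lower (0.219%). At an unadjusted p under 0.05 there were 182 genes (4.43%). The sides did not overlap over the 3 libraries in 152 genes (3.7%), among them 6 of the 13. The median log2 fold change over all tested genes was 0.0039. Plac8 and Klra9 were called with any 1 library left out and also by DESeq2, which was run on 12880 genes and called no other gene. Levels below are CPM, counts per 1000000 UMIs of the tested genes after TMM scaling, and are compared between cells and not between genes.

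**Figure D2:**
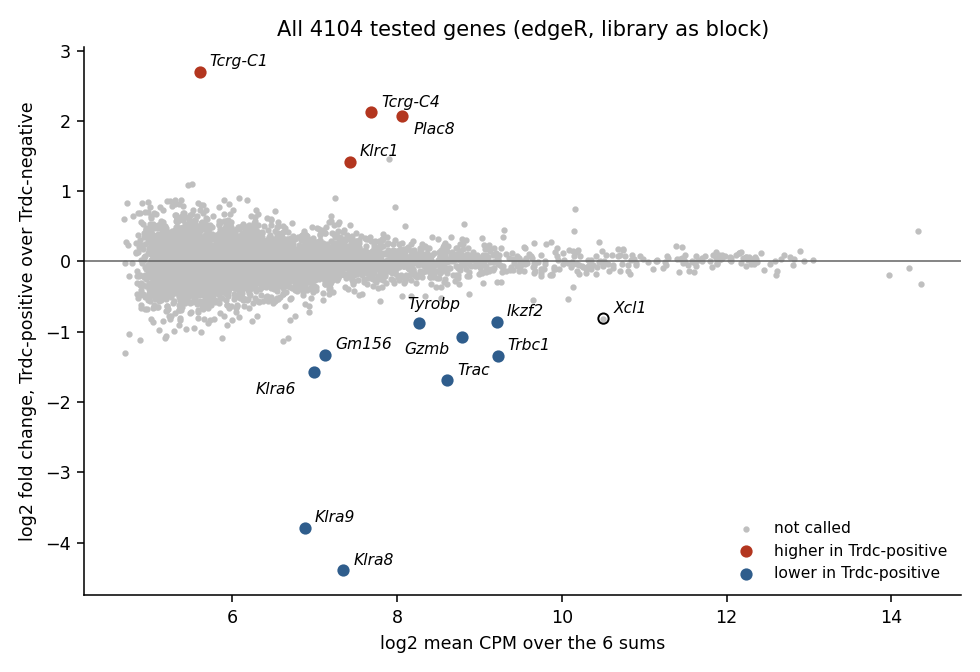
Log2 fold change, Trdc-positive over Trdc-negative, against the log2 mean CPM over the 6 sums for all 4104 tested genes. The 13 called genes are coloured and named, with Klra8 (−4.40) and Klra9 (−3.79) farthest from 0, and Xcl1 (−0.81) is ringed and was not called.

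The gamma chain constant genes Tcrg-C4 and Tcrg-C1 rose, and the alpha-beta constant genes Trac and Trbc1 fell, while Tcrg-C2 and Trbc2 were not called. Tcrg-C4 stood at 416, 415 and 133 CPM in Trdc-positive cells of libraries 1, 2 and 3, against 81.4, 72.1 and 118 CPM in Trdc-negative cells. The sides did not overlap, but in library 3 they were close. The log2 fold change was 2.12 ± 0.25 (SE, adjusted p = 8.9e-05, edgeR). Tcrg-C1 stood at 35.5, 123 and 75.2 CPM in Trdc-positive cells, against 0, 12.2 and 46.0 CPM in Trdc-negative cells. It was higher in every library, although the sides overlapped across libraries (2.69 ± 0.46, adjusted p = 0.0064, edgeR). Tcrg-C4 was not called without library 1 (1.92) or library 2 (1.61), nor was Tcrg-C1 (2.49 and 1.57). The 0 of library 1 allows up to 11.1 CPM (3 UMIs). Tcrg-C2, a further gamma constant gene, was not called, at 274, 586 and 98.4 CPM in Trdc-positive cells against 170, 500 and 125 CPM in Trdc-negative cells (0.29 ± 0.17). The gamma constant genes resemble each other, so reads may have been split between them.

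Of the V segments of the gamma chain that could be tested, Tcrg-V1 stood at 135, 91.0 and 700 CPM in Trdc-positive cells, against 18.5, 2.44 and 486 CPM in Trdc-negative cells (1.46 ± 0.38, adjusted p = 0.25, edgeR). It was higher in all 3 libraries but was not called. In 6 of 15 alternatives it was called, among them with cells matched on depth (1.41) and with positives at 2 or more Trdc UMIs (1.53). The 6 include the fits without library 3 (3.87), with no filter and without cells holding Trav4-4-dv10 or Trdv1. Those fits estimated no spread between genes in dispersion, which makes their p-values small. It was seen in 26, 28 and 30 Trdc-positive cells and in 4, 2 and 19 Trdc-negative cells. Trgv2 was near equal, at 341, 225 and 1169 CPM in Trdc-positive cells and 263, 173 and 1149 CPM in Trdc-negative cells (0.23 ± 0.14). Any gamma V segment was seen in 72.2%, 79.5% and 94.4% of Trdc-positive cells and in 52.8%, 47.1% and 83.3% of Trdc-negative cells. Library 3, read from the 5′ end where V segments lie, held the most on both sides. In all, 2 of 5 tested genes of the gamma-delta receptor list were called, both higher, and the other 30 of its 35 genes could not be tested.

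Trac, the alpha constant gene, stood at 114, 230 and 232 CPM in Trdc-positive cells, against 747, 766 and 256 CPM in Trdc-negative cells. The sides did not overlap, with a gap of several fold in libraries 1 and 2 and a small one in library 3. The log2 fold change was −1.69 ± 0.26 (adjusted p = 0.0024, edgeR), or −2.10 without library 3. It was not called without library 1 (−1.18) or library 2 (−1.64). A Trac UMI was seen in 19.0%, 41.0% and 41.7% of Trdc-positive cells, against 83.3%, 94.8% and 50% of Trdc-negative cells. Thinned to 1000 UMIs these shares were 10.1%, 15.7% and 14.7% of Trdc-positive cells and 44.4%, 49.4% and 17.1% of Trdc-negative cells. B cells had a Trac UMI in 7.38% of cells.

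Trbc1, a beta constant gene, stood at 423, 399 and 116 CPM in Trdc-positive cells, against 1720, 823 and 105 CPM in Trdc-negative cells (−1.35 ± 0.21, adjusted p = 0.0040, edgeR). It was lower in the 3′ libraries and slightly higher in library 3. Without library 1 it was not called (−0.79), nor with cells thinned to 1000 UMIs (−1.03). Its near copy Trbc2, with which it can share reads, was not called (−0.55 ± 0.22). Trbc2 stood at 643, 790 and 451 CPM in Trdc-positive cells, against 1416, 1297 and 223 CPM in Trdc-negative cells. In 5 of 15 alternatives Trbc2 was called lower, among them without library 3 (−0.91) and with positives at 2 or more Trdc UMIs (−1.03). With cells matched on depth it was not called (−0.66). Of 4 tested alpha-beta receptor and coreceptor genes, 2 were lower and none higher. Cd8a, a coreceptor chain, was not called (−0.52 ± 0.19), nor with cells matched on depth (−0.48). In 4 of 15 alternatives Cd8a was called lower, among them without library 3 (−0.91) and with positives at 2 or more Trdc UMIs (−0.75). Its partner Cd8b1 was too low to test, with 0, 2 and 62 UMIs in Trdc-positive cells and 1, 1 and 15 in Trdc-negative cells.

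Some cells held both constant genes. Of the 198 Trdc-positive cells, 64 also had a Trac UMI and 134 did not. Of the 280 Trdc-negative cells, 241 had a Trac UMI and 39 had neither. The 64 cells with both had a median of 4633 UMIs. Scrublet called 1 Trdc-positive and 1 Trdc-negative cell of cluster 9 doublets. Over all libraries together, Trac was lower in cells with more Trdc UMIs. Per 1000000 of all UMIs it was at 619 in cells with 0 Trdc UMIs, 396 with 1, 154 with 2 to 5 and 90.0 with 6 or more. This series is a description, since most cells with 6 or more come from libraries 1 and 2. In library 1 alone the values were 663, 443, 46.2 and 56.4, and in library 3 they were 256, 301 and 90.7 up to 5 UMIs.

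**Figure D3:**
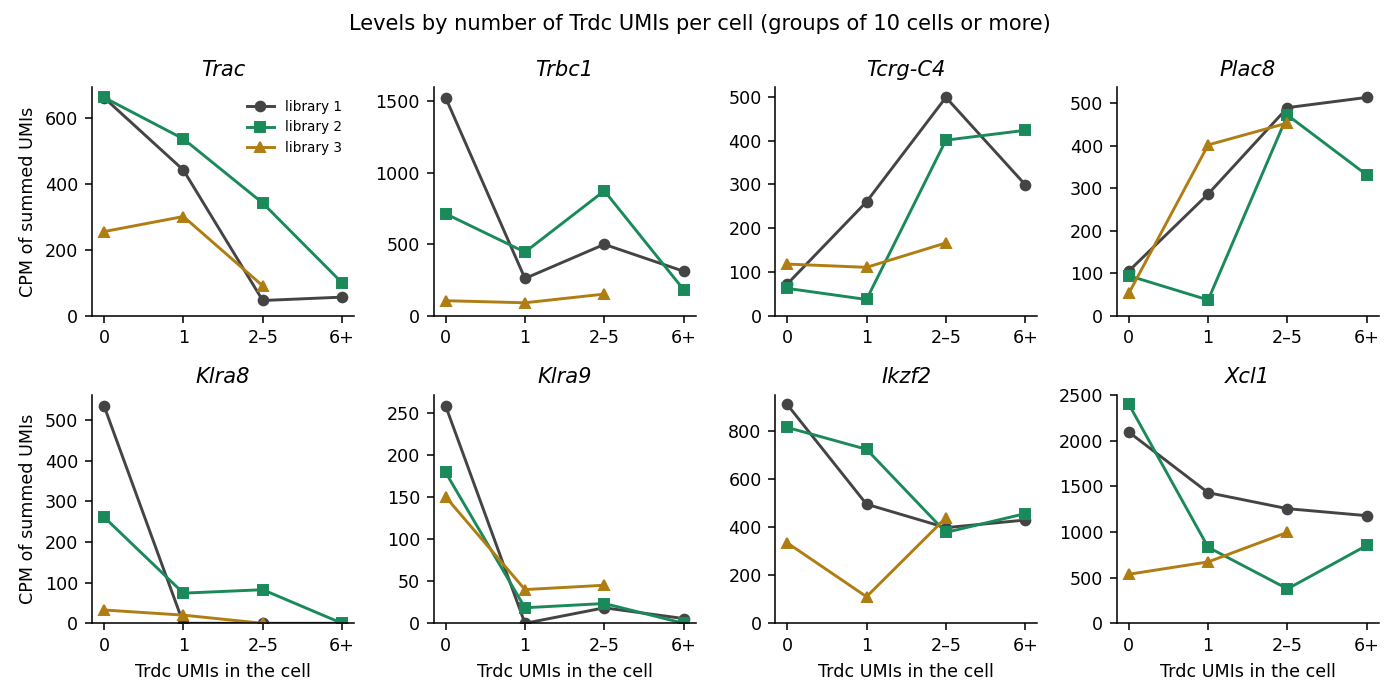
CPM of summed UMIs (per 1000000 of all UMIs) of 8 genes in cells grouped by their number of Trdc UMIs, for each library, where a group holds 10 cells or more. Klra8 and Klra9 are at their highest in cells with 0 Trdc UMIs in every library.

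Plac8, which encodes a small cysteine-rich protein found in many leukocytes, rose. It stood at 551, 361 and 405 CPM in Trdc-positive cells, against 118, 109 and 52.5 CPM in Trdc-negative cells. Every Trdc-positive sum was above every Trdc-negative one, in both kinds of library. The log2 fold change was 2.07 ± 0.18 (adjusted p = 3.2e-06, edgeR). A Plac8 UMI was seen in 60.8%, 43.4% and 41.7% of Trdc-positive cells and in 13.9%, 18.0% and 16.7% of Trdc-negative cells. B cells express Plac8 too, with a UMI in 59.3% of cells, while the B cell genes Cd79a and Ms4a1 gave 1 and 4 UMIs in Trdc-positive cells and 1 and 2 in Trdc-negative cells. Other genes of the B cell list were present. Cd74, the MHC class II chaperone, stood at 633, 131 and 168 CPM in Trdc-positive cells, against 303, 67.2 and 204 CPM in Trdc-negative cells (0.77 ± 0.20, adjusted p = 0.25, edgeR). It was higher in libraries 1 and 2, lower in library 3, and not called. The immunoglobulin genes Igkc and Ighm gave 44 and 29 UMIs in Trdc-positive cells and 86 and 43 in Trdc-negative cells. All 10 genes of the list summed, per 1000000 of all UMIs, to 711, 150 and 264 on the Trdc-positive side and 446, 144 and 242 on the Trdc-negative side. Their part in the Plac8 result was not tested. In cluster 8 Plac8 averaged 196 ± 78.8 per 1000000 of all UMIs (SD, n = 3), and in CD8 T cells 49.8 ± 16.0.

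**Figure D4:**
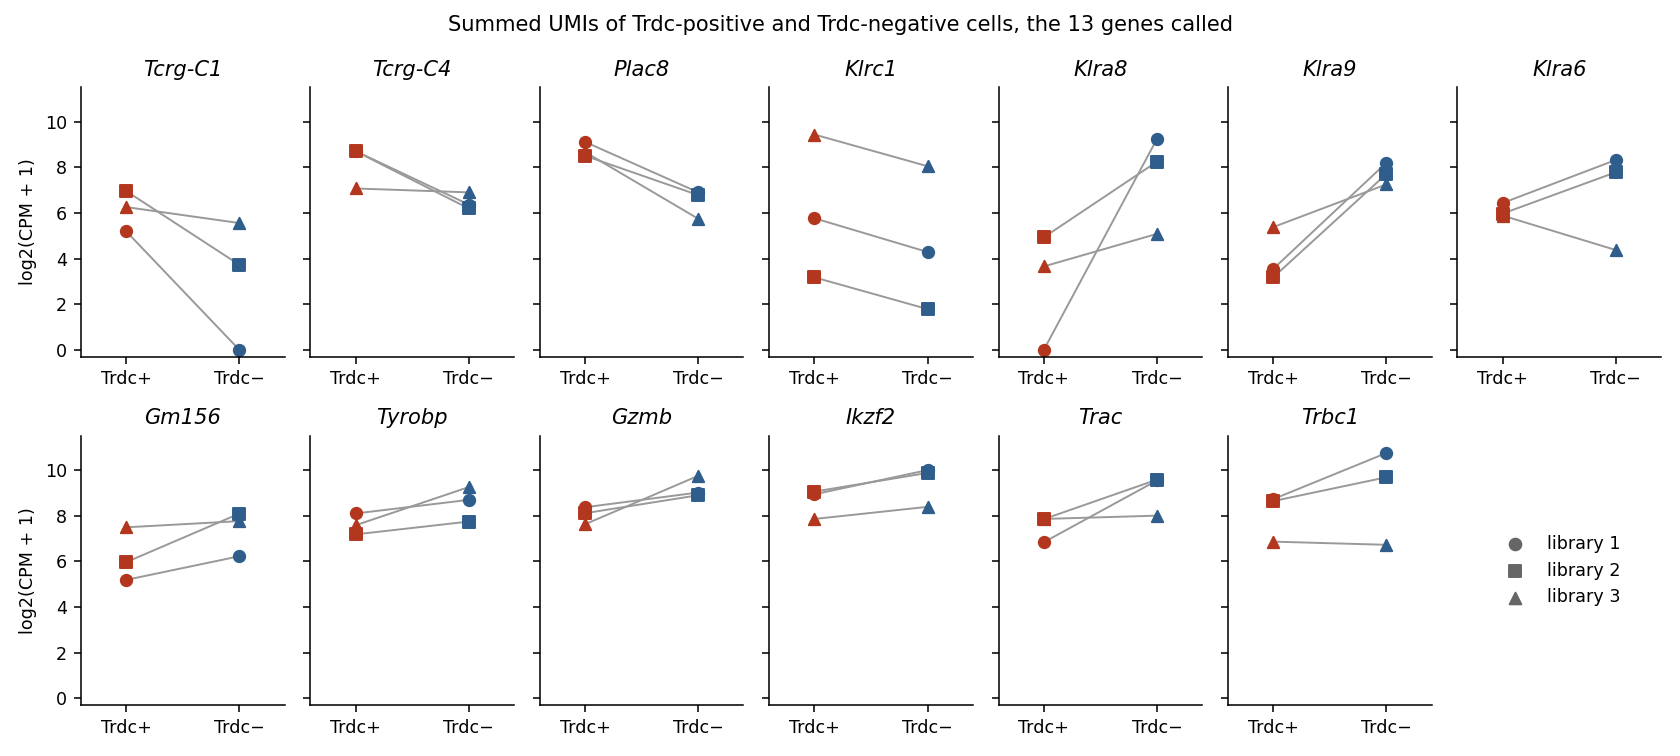
Log2(CPM + 1) of the 13 called genes in the summed Trdc-positive cells (left, red) and Trdc-negative cells (right, blue), with lines joining the sides of each library. Klra6 and Trbc1 ran the other way in library 3 than in libraries 1 and 2, and the other 11 genes ran 1 way in all 3.

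The receptor genes Klra8, Klra9 and Klra6 fell. Klra8 stood at 0, 29.4 and 11.6 CPM in Trdc-positive cells, against 603, 302 and 32.8 CPM in Trdc-negative cells (−4.40 ± 0.41, adjusted p = 3.2e-06, edgeR). The sides did not overlap, though library 3 of the Trdc-negative side lay only just above library 2 of the Trdc-positive side. The 0 of library 1 allows up to 10.7 CPM. Without library 1 or library 2 it was too low to be tested. The same held for cells matched on depth, cells thinned to 1000 UMIs, the split after thinning and positives at 2 or more Trdc UMIs. The fold change of Klra8 was therefore not tested with depth evened out. A Klra8 UMI was seen in 0 of 79, 5 of 83 and 1 of 36 Trdc-positive cells, and in 65.3%, 36.6% and 8.33% of Trdc-negative cells. Thinned to 1000 UMIs, these shares were 0%, 1.20% and 0% of Trdc-positive cells and 37.5%, 14.5% and 0% of Trdc-negative cells. The 0 of 79 allows a share of up to 3.80%, and B cells had a Klra8 UMI in 0.821% of cells. The counts that remained in Trdc-positive cells came from cells with few Trdc UMIs: 6 Klra8 UMIs in cells with 1, 7 with 2 to 5 and 0 with 6 or more.

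Klra9 stood at 10.7, 8.03 and 40.5 CPM in Trdc-positive cells, against 292, 208 and 151 CPM in Trdc-negative cells (−3.79 ± 0.35, adjusted p = 3.2e-06, edgeR). The sides did not overlap, and Trdc-positive cells were lower in library 3 as well. That library gave 7 UMIs in 4 of 36 Trdc-positive cells and 23 in 10 of 36 Trdc-negative cells. Thinned to 1000 UMIs, 0% and 14.3% of these cells had a Klra9 UMI, and thinned to 500 UMIs 5.56% and 2.78%. Summed Klra9 was also lower in Trdc-positive cells with a Trac UMI than in Trdc-negative cells without one. In Trdc-positive cells with a Trac UMI it was at 0, 10.97 and 0 per 1000000 of all UMIs, and in Trdc-negative cells without a Trac UMI at 290, 165 and 109. The former held 0, 2 and 0 Klra9 UMIs in 15, 34 and 15 cells, and the latter 9, 7 and 7 in 12, 9 and 18 cells. Median UMIs were 4009, 5160.5 and 5023 in the former and 2166.5, 4543 and 2812 in the latter. The latter held Trbc1 at 1835, 354 and 78.1 per 1000000 of all UMIs. Whether Trac was missed in these shallower cells was not tested, so the contrast does not separate Trac from Trdc. The 3′ end of the Klra9 transcript shares 69.5% of its 31-base words with another Klra gene, and that of Klra8 40.8%, so reads could have been split within the family.

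Klra6 stood at 85.3, 61.6 and 57.9 CPM in Trdc-positive cells, against 318, 219 and 19.7 CPM in Trdc-negative cells (−1.58 ± 0.28, adjusted p = 0.011, edgeR). It was lower in the 3′ libraries and higher in the 5′ library, so the sides overlapped. Without library 1 (−1.27) or library 2 (−1.32) it was not called. Of 7 Klra genes tested, 3 were lower and 4 were not called. Klra1, one of those not called, was at 967, 1614 and 116 CPM in Trdc-positive cells and 1890, 1640 and 236 CPM in Trdc-negative cells (−0.53 ± 0.17). The other uncalled genes had log2 fold changes of −0.27 (Klra4), −0.35 (Klra7) and 0.27 (Klra5).

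A further pair of receptor genes of the same stretch of chromosome 6 were called. Klrc1, which encodes the inhibitory receptor NKG2A, rose, at 53.3, 8.03 and 689 CPM in Trdc-positive cells against 18.5, 2.44 and 263 CPM in Trdc-negative cells (1.42 ± 0.25, adjusted p = 0.011, edgeR). It was higher in each library, while libraries differed far more than the sides. It gave 15, 3 and 119 UMIs in Trdc-positive cells and 5, 2 and 40 in Trdc-negative cells, so most came from library 3. Without library 1 (1.41) it was not called, nor with positives at 2 or more Trdc UMIs (0.98), and without library 3 it was too low to be tested. Gm156, which RefSeq names Klrh1, fell, at 35.5, 61.6 and 179 CPM in Trdc-positive cells against 74.0, 272 and 217 CPM in Trdc-negative cells (−1.32 ± 0.27, adjusted p = 0.037, edgeR). It was not called without library 1 (−1.34) or library 2 (−0.54). Between 129666015 and 130193112 on chromosome 6 (mm10), the span from Klrc1 to Klra9, 5 of 7 tested genes were called, against 0.317% of all tested genes. The span was bounded by called genes after their values were seen, which sets this count, so nothing is read from it.

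The genes Gzmb, Tyrobp and Ikzf2 fell as well. Gzmb, the protease granzyme B, stood at 331, 276 and 197 CPM in Trdc-positive cells, against 518, 476 and 860 CPM in Trdc-negative cells. The sides did not overlap, and the log2 fold change was −1.07 ± 0.20 (adjusted p = 0.011, edgeR). With cells matched on depth Gzmb was not called (−0.58), nor without library 1 (−1.32) or library 2 (−1.27). Shares of cells with a Gzmb UMI were 20.3%, 22.9% and 30.6% on the Trdc-positive side and 30.6%, 18.0% and 36.1% on the Trdc-negative side. In library 2 more Trdc-positive than Trdc-negative cells had one although the summed level was lower. Of 10 tested cytotoxic genes Gzmb alone was called, and the list's median was −0.01.

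Tyrobp, the signalling adaptor DAP12 of activating NK receptors, stood at 274, 145 and 191 CPM in Trdc-positive cells, against 414, 214 and 611 CPM in Trdc-negative cells (−0.88 ± 0.19, adjusted p = 0.049, edgeR). It was lower in each library, and was not called with any 1 library left out (−1.05, −1.05 and −0.58 without library 1, 2 and 3). Over the NK list of 17 tested genes, 1 was higher, 3 were lower and the median was −0.24. Per 1000000 of all UMIs, the 26 genes of this list summed to 5975, 6489 and 5961 in Trdc-positive cells and 8215, 8128 and 7386 in Trdc-negative cells. Ikzf2, which encodes the transcription factor Helios, stood at 491, 533 and 232 CPM in Trdc-positive cells, against 1024, 939 and 335 CPM in Trdc-negative cells. It was lower in each library by −0.86 ± 0.14 (adjusted p = 0.0049, edgeR), and was not called without library 1 (−0.72) or library 2 (−0.89). A UMI of Ikzf2 was seen in 64.6%, 75.9% and 44.4% of Trdc-positive cells and 91.7%, 95.9% and 58.3% of Trdc-negative cells. It was the only gene called among 18 tested lineage transcription factors.

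Xcl1, a chemokine for cross-presenting dendritic cells and a marker of cluster 9, was not called. It stood at 1422, 849 and 776 CPM in Trdc-positive cells, against 2363, 2774 and 538 CPM in Trdc-negative cells (−0.81 ± 0.23, adjusted p = 0.47, edgeR). It was lower in libraries 1 and 2 and higher in library 3. In 4 of 15 alternatives it was called lower, among them without library 3 (−1.23) and with positives at 2 or more Trdc UMIs (−0.85). With cells matched on depth it was not called (−0.42). The share of cells with an Xcl1 UMI was close, at 64.6%, 59.0% and 33.3% of Trdc-positive cells and 65.3%, 65.1% and 36.1% of Trdc-negative cells.

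Of 320 genes on 17 lists, 147 could be tested and 11 were called, against 13 of all 4104 tested genes (0.317%). The lists were chosen with earlier results of these data known. No gene was called on the lists of the CD3 complex (14 tested), cytokines and chemokines (8), their receptors (12), the type 17 programme (3), tissue residency (16), checkpoint receptors (15), immediate-early genes (19) and cell division (6). No gene was called among the 5 tested from lists of B cells, myeloid cells and nerve stroma. On the NKT and MAIT list Plac8 alone was called of 6 tested. Medians of the lists from the CD3 complex to cell division, and of the NKT and MAIT list, lay between −0.14 and 0.25. The genes next in order of p after the called ones, chosen after their values were seen, were higher in Trdc-positive cells. They were Ly6a, an activation-associated surface protein (0.74 ± 0.16, adjusted p = 0.056, edgeR), and the phosphodiesterase Pde4b (0.90 ± 0.20, adjusted p = 0.068, edgeR).

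The Trdc-negative cells differed between libraries in their V segments, which were picked after the counts were seen. Trav4-4-dv10, an alpha chain segment that can also join delta chains, was seen in 38 of 72 Trdc-negative cells of library 1. It was seen in 0 of 172 and 0 of 36 in libraries 2 and 3, and in 0 of the 198 Trdc-positive cells, which allows a share of up to 1.52%. Trdv1, a delta V segment, was seen in 9 of 83 Trdc-positive cells of library 2 and 0 of 36 of library 3, against 58 of 172 and 18 of 36 Trdc-negative cells. In library 2, 96.6% of the Trdc-negative cells with Trdv1 also had a Trac UMI, as did 93.9% of those without Trdv1. In library 3 it was 12 of 18 Trdc-negative cells with Trdv1 and 6 of 18 without Trdv1. B cells had Trav4-4-dv10 in 3 and Trdv1 in 0 of 1950 cells. Trav15-1-dv6-1 and Trav15-2-dv6-2, also alpha chain segments that can join delta chains, ran the other way. Trav15-1-dv6-1 was seen in 30 Trdc-positive and 13 Trdc-negative cells, of which library 3 held 25 and 12. Trav15-2-dv6-2 was seen in 6 Trdc-positive cells and 1 Trdc-negative cell.

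Klra8 differed with Trav4-4-dv10 and Trdv1 inside the Trdc-negative side of libraries 1 and 2. In library 1 it was seen in 34 of 38 Trdc-negative cells with Trav4-4-dv10 (89.5%, exact interval 75.2 to 97.1) and in 13 of 34 without it (38.2%, 22.2 to 56.4). In library 2 it was seen in 2 of 58 Trdc-negative cells with Trdv1 (3.45%, 0.420 to 11.9) and in 61 of 114 without it (53.5%, 43.9 to 62.9). In library 3 Klra8 was seen in 1 of 18 Trdc-negative cells with Trdv1 and in 2 of 18 without it, and Klra9 in 5 of 18 of each. Cells of 1 library share their animals and may share a clone, so these intervals cover counting error only. Without the cells that held either segment Klra8 was too low to be tested, Klra9 was still lower (−3.58), Trac was lower (−1.79) and Plac8 was higher (2.23). Klrc1 (0.71) and Tyrobp (−0.63) were then not called.

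**Figure D5:**
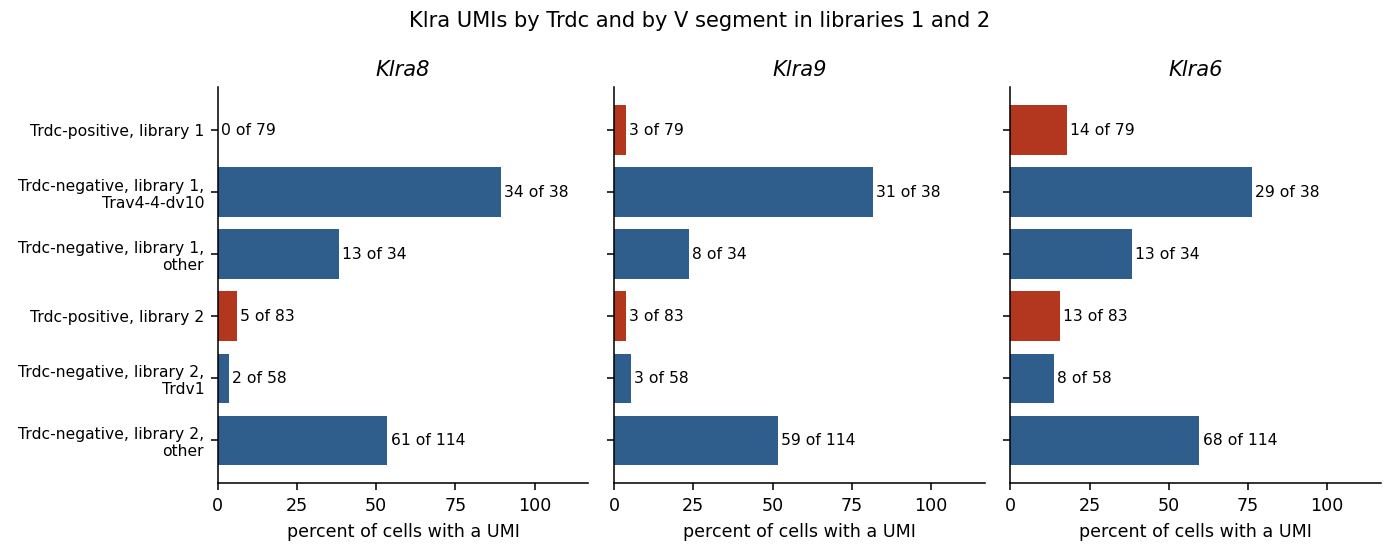
Percent of cells with a UMI of Klra8, Klra9 or Klra6 in Trdc-positive cells (red) and in Trdc-negative cells with or without the named V segment (blue), libraries 1 and 2. Trdc-negative cells with Trdv1 in library 2 (2, 3 and 8 of 58) stand near the Trdc-positive cells (5, 3 and 13 of 83).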

How the data were processed

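The authors deposited the UMI count of 17168 genes in 11640 cells, unscaled, and a cell table with cluster, class and mitochondrial percent, per the file headers. Cell Ranger 5.0.1, Seurat 4.0 and mm10 are named in the submitters' processing notes, without roles. Cells were paired with samples by the cell numbers in the labels. All cells were kept. Scrublet (scanpy 1.11.5) called 84 of 11640 cells doublets. Trdc was removed, and UMIs were summed by side and library. Sums were tested with edgeR 4.0.16 (quasi-likelihood F-test, TMM, filterByExpr with a minimum count of 10, library as block) in R 4.3.3. Standard errors are the log2 fold change over the root of F. Both sums of a pair come from the same library. Their deviations from the side means correlated at 0.629, 0.634 and 0.710 over 4104 genes. On data simulated for this comparison (3866 genes), 68.4% of 2-fold and 99% of 4-fold changes were recovered, with 5 false calls. The simulation gave each change the same size in all 3 libraries, so these figures do not cover changes that differ between libraries. Thinning was random to 1000 or 500 UMIs, and matching was within 10% of UMIs. Alternatives were RLE scaling, DESeq2 1.42.0, limma-voom 3.58.1, no filter, other splits on Trdc, doublets left out, no block and each library left out. Gene positions are from GENCODE M21 and promoters from RefSeq. The named genes are all testable receptor genes, the called genes of each list with the smallest p, at most 5, the 12 largest rises and falls the same way in all libraries, and Xcl1. The split, its members and the lists were chosen with earlier results of these data known. Clusters were drawn by the authors from the same counts, Trdc included.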

Additional observations from a re-analysis of the deposited data

How the results depend on the processing

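The 13 genes called in the test as reported became 11 with RLE size factors, 15 with limma-voom, 16 with cells matched on depth, 10 when cells were split after thinning to 1000 UMIs and 11 without doublets. The number moved more under other settings. It was 2 with DESeq2 (Plac8 and Klra9) and 37 with no filter on low counts, both on 12880 genes instead of 4104. It was 4 with cells thinned to 1000 UMIs (1159 genes tested) and 24 with positives at 2 or more Trdc UMIs. For Trdc-positive cells without Trac against Trdc-negative cells with Trac it was 21. An alternative chosen after seeing the data, without cells holding Trav4-4-dv10 or Trdv1, gave 20. Leaving out 1 library gave 3 to 28 calls: 3 without library 1, 6 without library 2 and 28 without library 3. The fits with no filter, without library 3 and without the V segment cells estimated no spread between genes in dispersion, which makes their p-values small. Without the replicate block, 0 genes were called (edgeR, 25 at an unadjusted p under 0.05), and the pairing by library is part of the design. Where tested, each of the 13 genes kept its direction in the alternatives run. Plac8 and Klra9 were called in 14 of 15 alternatives each, the exception being the fit without the block. Calls lost without library 1 or 2 are given beside their genes. Tyrobp was not called in 11 of 15 alternatives. The Trdc-positive share was 26.3% when thinned and 32.0% at 2 or more UMIs, and 41.3% to 51.2% with a library left out. Among uncalled genes followed here, 2 changed sign. Itgae ran between −0.027 without library 2 and 0.94 without library 3, where it was called. Cd3e, at −0.11 without library 3, was at 0.0066 without library 1, 0.0031 without library 2, 0.025 with no block, 0.0031 thinned, 0.049 matched, 0.088 split after thinning and 0.020 without the V segment cells. The cause was not tested for any of these. In library 3, with 36 cells on each side, Trac gave 40 UMIs in Trdc-positive and 39 in Trdc-negative cells. Klra8 gave 2 and 5 there. Of its Trdc-positive cells, 55.6% had a single Trdc UMI. The few cells and counts and the split on single UMIs limit what that library can show.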
